A study of Rattus norvegicus with 10 samples.

Results

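The transcripts described here are those of 5 ion channel genes through which sensory neurons register touch, stretch and acid: Piezo1, Piezo2, Asic1, Asic2 and Asic3. They were chosen by name from a table of 30560 genes. The table comes from RNA sequencing of the L6 dorsal root ganglion, which houses the cell bodies of sensory neurons outside the spinal cord. All 5 had a single row in the table, and all 5 were among the 15186 genes with enough counts to be tested. The ganglia came from Sprague Dawley rats aged 7 to 8 weeks that carried a lumbar intrathecal catheter and received meloxicam as analgesic. The treated group, 5 samples, received SCN9A_2544 at 0.75 mg, an siRNA (small interfering RNA) of the divalent kind against Scn9a, and the control group, 5 samples, was given phosphate-buffered saline (PBS). Dosing was 5 days after the catheter surgery, and every sample has a labelled timepoint of 14 days, whose starting point the labels do not give. The labels do not say whether each sample is 1 animal. A p-value between the groups sets their difference against the variation between these samples, some of which may be technical. It may therefore not extend to animals. None of the 10 samples was given an siRNA without a target. Effects of siRNA in general and of lowering Scn9a therefore cannot be told apart. The series design gives the specificity of the siRNA as the question.

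PIEZO1 and PIEZO2 are very large membrane proteins that assemble as trimers and open when the membrane is stretched or indented. Piezo2 is the main channel of light touch and body position sense in sensory neurons, while Piezo1 is known above all from blood vessels, red blood cells and other cells that bear flow or pressure. The acid-sensing ion channels (ASICs) are sodium-conducting trimers of the degenerin family that open when protons rise outside the cell. Asic1 and Asic3 are expressed widely in sensory neurons, Asic3 being a sensor of moderate acidity in muscle and joint afferents, and Asic2 forms channels with them that respond to stronger acid. ASICs have also been studied as parts of the machinery of touch, though knockout mice show only partial changes in it.

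Each gene has its own start of transcription, and the sequence around it is shown for the 3 ASIC genes. Asic1 and Asic3 varied together over libraries as described further on, and Asic2 has 2 listed starts, which a count per gene does not separate. Piezo2 varied with Asic1 and Asic3 about as closely (r = 0.94 and 0.90), and its entry is described below without the sequence. The sequences are from RefSeq on build GRCr8, from 250 bases before to 50 bases after the start, written along the gene's strand. The table of promoters matched 4 of the 5 members, with 5 entries. Capitals mark a GC box (GGGCGG, or CCGCCC on the other strand) or a TATA box (TATAAA, or TTTATA on the other strand), searched on both strands.
Asic1, chr7:132678457-132678756, plus strand: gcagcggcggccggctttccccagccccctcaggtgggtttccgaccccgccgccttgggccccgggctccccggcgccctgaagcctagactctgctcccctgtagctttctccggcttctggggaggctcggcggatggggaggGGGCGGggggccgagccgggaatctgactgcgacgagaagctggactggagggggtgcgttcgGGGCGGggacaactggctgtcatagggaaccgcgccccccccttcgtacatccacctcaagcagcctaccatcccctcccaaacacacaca
Asic3, chr4:11657318-11657617, minus strand: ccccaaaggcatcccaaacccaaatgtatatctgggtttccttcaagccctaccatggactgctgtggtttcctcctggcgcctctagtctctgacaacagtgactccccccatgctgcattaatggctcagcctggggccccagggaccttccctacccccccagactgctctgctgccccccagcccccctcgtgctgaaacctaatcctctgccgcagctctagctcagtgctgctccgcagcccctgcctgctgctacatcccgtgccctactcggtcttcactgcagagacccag
Asic2, first entry, chr10:67438188-67438487, minus strand: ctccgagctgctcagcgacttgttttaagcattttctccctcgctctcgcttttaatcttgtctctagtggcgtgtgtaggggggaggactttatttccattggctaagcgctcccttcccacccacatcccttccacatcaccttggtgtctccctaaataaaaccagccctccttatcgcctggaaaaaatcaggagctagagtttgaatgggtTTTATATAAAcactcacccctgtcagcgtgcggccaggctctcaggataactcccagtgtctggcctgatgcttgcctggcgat
Asic2, second entry, chr10:66636012-66636311, minus strand: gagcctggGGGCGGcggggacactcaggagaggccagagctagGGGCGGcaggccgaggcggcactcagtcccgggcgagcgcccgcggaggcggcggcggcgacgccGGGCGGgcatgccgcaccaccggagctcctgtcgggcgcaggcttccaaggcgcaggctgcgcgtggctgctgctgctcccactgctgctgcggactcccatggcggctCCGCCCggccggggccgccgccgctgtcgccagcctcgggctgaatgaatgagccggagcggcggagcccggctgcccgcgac
The Asic1 sequence held 2 GC boxes, 23 CG dinucleotides and 69.7% G and C, while that of Asic3 held neither motif, 6 CG dinucleotides and 60.7% G and C. The first Asic2 entry held 2 overlapping matches to the TATA box beginning 34 and 30 bases before the start, with 10 CG dinucleotides and 51.0% G and C. The second Asic2 entry held 4 GC boxes, 40 CG dinucleotides and 78.0% G and C, and 96.8% of listed promoters had fewer CG dinucleotides. The Piezo2 entry (chr18:59115166-59115465, minus strand) held 1 GC box and 24 CG dinucleotides. Over all 33469 listed promoters of this length, 33.1% held a GC box and 14.2% a TATA box.

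Library totals ran from 13566911 to 15420006 estimated counts in SCN9A_2544 libraries and from 11832376 to 15355259 in PBS libraries. Scn9a, the target, stood at 85.4 ± 23.9 CPM (scaled counts per 1000000 counts) in SCN9A_2544 ganglia and 175 ± 50.2 CPM in PBS ganglia (SD, n = 5 each), and every treated library lay below every PBS library. Its edgeR log2 fold change was -1.03 (SE 0.25), with a p of 0.00134. Over all genes its adjusted p was 0.963, so the target itself did not pass by edgeR without a covariate. Neuronal markers were present in every library, the summed level of the 19 pan-neuronal genes running from 13722 to 37260 CPM in SCN9A_2544 and from 17187 to 38895 CPM in PBS libraries. That range is wide in both groups. SCN9A_2544 replicate 3, PBS replicate 3 and PBS replicate 5 had the lowest pan-neuronal means, at 7.58, 7.76 and 8.08 log2 CPM, and the other 7 libraries lay between 8.55 and 9.01. In bulk ganglia, fewer neurons and less RNA per neuron cannot be told apart.

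None of the 5 channel genes passed an adjusted p of 0.05 between SCN9A_2544 and PBS ganglia in edgeR's quasi-likelihood test, in which 0% of all tested genes passed in either direction. At an unadjusted p under 0.05 there were 0 of the 5 members, against 4.23% of all tested genes (2.5% higher, 1.73% lower), and DESeq2 called 0 members, against 0.0992% of the 17140 genes it tested (17 genes). The log2 fold change was above 0 for 4 of the 5, where 53.4% of all tested genes were above 0. In 0 of the 5 did the treated and PBS libraries separate without overlap, against 0.665% of all tested genes. The 5 genes varied in unlike ways from ganglion to ganglion. Over all 10 libraries Asic1, Asic3 and Piezo2 followed the level of neuronal markers with r of 0.95 or more, Asic2 with r = 0.79, and Piezo1 had r = -0.51.

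**Figure D1:**
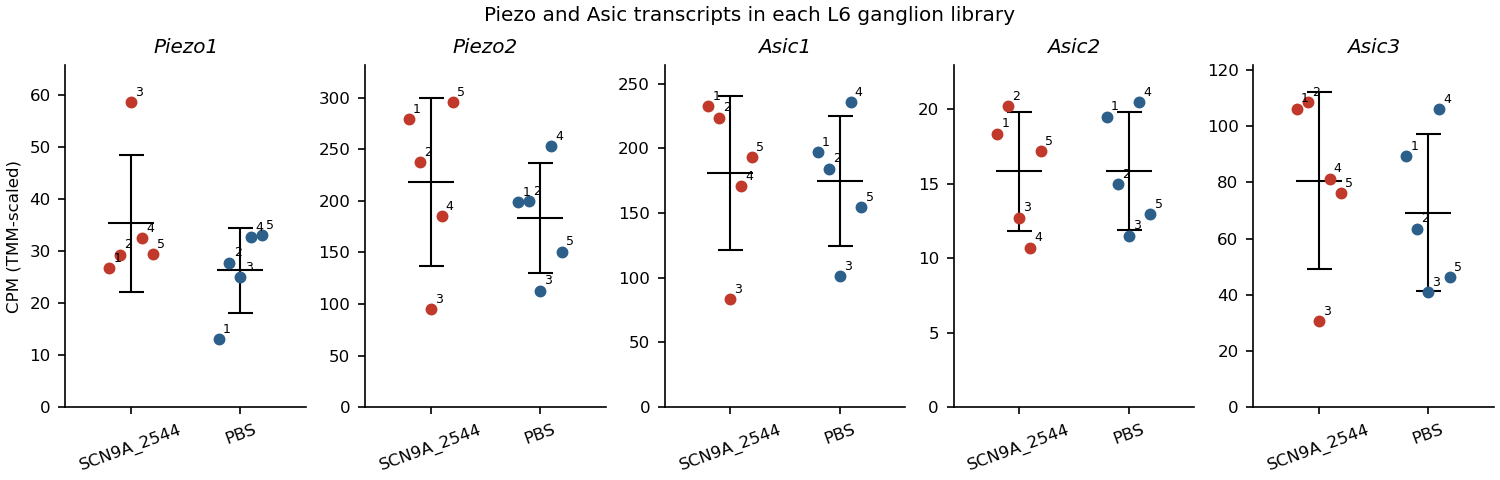
CPM of each gene (y axis, TMM-scaled counts per 1000000 counts) in every library, SCN9A_2544 left in red and PBS right in blue, numbered by replicate, with the mean and SD of 5 libraries as bars. The groups overlap for every gene, and SCN9A_2544 replicate 3 is lowest for Piezo2, Asic1 and Asic3 and highest, at 58.8 CPM, for Piezo1.

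Piezo2 (ENSRNOG00000038784), the touch and proprioception channel, had 279, 237, 94.9, 185 and 296 CPM in SCN9A_2544 replicates 1 to 5 and 199, 199.96, 113, 253 and 151 CPM in PBS replicates 1 to 5. The lowest values of both groups belonged to replicate 3 of each, and the treated values lay on both sides of the PBS range. Piezo2 averaged 219 ± 81.3 CPM in SCN9A_2544 and 183 ± 53.4 CPM in PBS ganglia (SD, n = 5 each). The edgeR log2 fold change was 0.26 (SE 0.30, 95% interval -0.39 to 0.90, adjusted p = 0.975), an interval that runs from 0.762-fold to 1.87-fold. Between the highest and the lowest library, Piezo2 differed 3.12-fold, while the fitted difference between the groups was 1.19-fold.

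Piezo1 (ENSRNOG00000056786), its relative of vessels and other flow-bearing cells, had 26.8, 29.4, 58.8, 32.5 and 29.4 CPM in SCN9A_2544 replicates 1 to 5 and 13.1, 27.8, 25.0, 32.7 and 33.2 CPM in PBS replicates 1 to 5. Without SCN9A_2544 replicate 3 and PBS replicate 1, which stand at the 2 ends, the other 8 libraries lay between 25.0 and 33.2 CPM. The means were 35.4 ± 13.2 CPM in SCN9A_2544 and 26.4 ± 8.16 CPM in PBS ganglia (SD, n = 5 each), with an edgeR log2 fold change of 0.42 (SE 0.28, 95% interval -0.18 to 1.03, adjusted p = 0.963). The log2 fold change was 0.13 without SCN9A_2544 replicate 3 and 0.25 without PBS replicate 1, so the value depends on these 2 libraries.

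Asic1 (ENSRNOG00000059765), whose subunits form fast channels that acid opens briefly, had 232, 224, 83.7, 171 and 193 CPM in SCN9A_2544 replicates 1 to 5 and 197, 184, 101, 236 and 155 CPM in PBS replicates 1 to 5. Treated replicate 3 was below every PBS library and no treated library was above the PBS range. The averages were 181 ± 59.6 CPM in SCN9A_2544 and 175 ± 50.4 CPM in PBS ganglia (SD, n = 5 each), and the edgeR log2 fold change was 0.051 (SE 0.28, 95% interval -0.56 to 0.66, adjusted p = 0.995).

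Asic3 (ENSRNOG00000008380), the ASIC most associated with muscle and joint afferents, had 106, 109, 30.7, 81.4 and 76.2 CPM in SCN9A_2544 replicates 1 to 5 and 89.3, 63.6, 40.9, 106 and 46.3 CPM in PBS replicates 1 to 5. Its 3 lowest libraries were SCN9A_2544 replicate 3 and PBS replicates 3 and 5, the same libraries that had the lowest pan-neuronal means. It averaged 80.7 ± 31.5 CPM in SCN9A_2544 and 69.2 ± 27.9 CPM in PBS ganglia (SD, n = 5 each), and edgeR gave a log2 fold change of 0.22 (SE 0.34, 95% interval -0.53 to 0.97, adjusted p = 0.976). Its standard error was the highest of the 5.

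Asic2 (ENSRNOG00000058308), the subunit that shifts mixed channels towards stronger acid, had 18.4, 20.2, 12.7, 10.7 and 17.2 CPM in SCN9A_2544 replicates 1 to 5 and 19.5, 14.97, 11.5, 20.5 and 12.9 CPM in PBS replicates 1 to 5. Here the lowest library was SCN9A_2544 replicate 4, not replicate 3. The averages, 15.8 ± 3.98 CPM in SCN9A_2544 and 15.9 ± 3.96 CPM in PBS ganglia (SD, n = 5 each), lay within each other's spread, and the edgeR log2 fold change was -0.0041 (SE 0.22, 95% interval -0.48 to 0.48, adjusted p = 0.999). These CPM values are not scaled to transcript length, so the levels of the 5 genes are not compared with each other.

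The 2 remaining ASIC genes were at the edge of detection. Asic4 had 10, 10, 6, 0 and 7 estimated counts in SCN9A_2544 replicates 1 to 5 and 0, 9, 2, 8 and 3 in PBS replicates 1 to 5. Asic5, known in rodents as a bile acid-sensitive channel of intestine and brain, had 0 counts in all 10 libraries, which in the shallowest library allows up to 0.254 CPM, counting error only.

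The spread from library to library was then set against neuron content, using the pan-neuronal markers. Over the 10 libraries the SD of log2 CPM was 0.51 for Asic1, 0.55 for Piezo2 and 0.64 for Asic3. After the pan-neuronal mean of the same library was subtracted, these SDs fell to 0.13, 0.17 and 0.17. Of the 15167 tested genes outside the pan-neuronal list, 0.547% had a smaller SD than Asic1 on that relative scale, 1.53% a smaller one than Piezo2 and 1.58% a smaller one than Asic3, while the median gene had 0.62. Asic2 kept its spread, with an SD of 0.35 before and 0.33 after. Piezo1 spread more, with 0.52 before and 0.92 after, and 84.8% of these genes had a smaller value after. The median SD of these genes also rose, from 0.36 before to 0.62 after, so the widening was not particular to Piezo1.

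**Figure D2:**
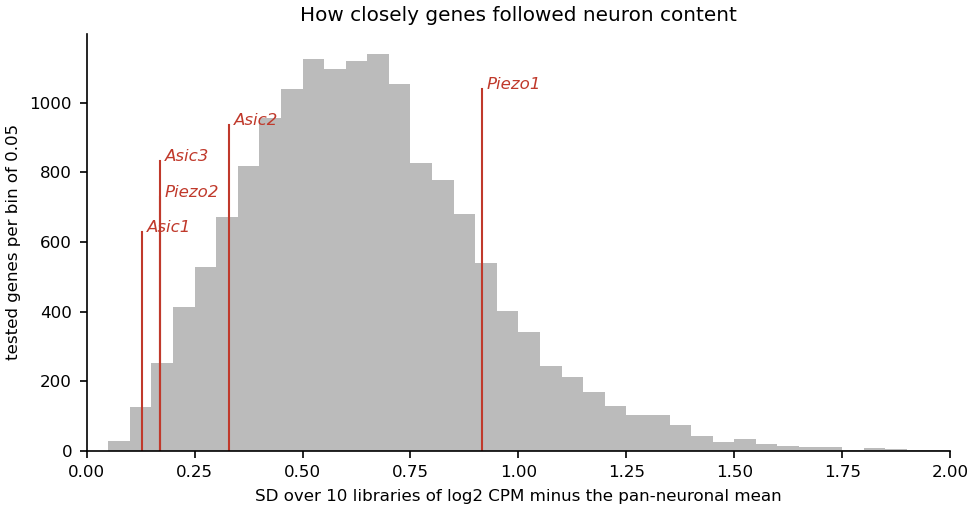
Histogram of the SD over 10 libraries of log2 CPM minus the pan-neuronal mean (x axis, log2 units) for tested genes other than the markers (y axis, genes per bin of 0.05), with the 5 channel genes as red lines. Asic1, Piezo2 and Asic3 lie at the left edge (0.13, 0.17 and 0.17), Asic2 at 0.33 and Piezo1 at 0.92, to the right of most genes.

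Relative to neurons, the members can be read per library. Asic1 minus the pan-neuronal mean was -1.12, -1.13, -1.19, -1.13 and -1.23 on the log2 scale in SCN9A_2544 replicates 1 to 5 and -1.29, -1.03, -1.10, -1.13 and -0.81 in PBS replicates 1 to 5. The treated values thus spanned a range inside that of the PBS values, although Asic1 itself differed 2.82-fold between the highest and the lowest library. Piezo2 on the same scale ran from -1.04 to -0.62 in SCN9A_2544 and from -1.27 to -0.84 in PBS libraries. Asic3 ran from -2.63 to -2.17 in SCN9A_2544 and from -2.56 to -2.28 in PBS libraries. Asic2 stood lowest, at -5.11, in SCN9A_2544 replicate 4 and highest, at -3.89, in SCN9A_2544 replicate 3, with PBS libraries between -4.64 and -4.22. For all 4 of these genes the groups overlapped. Piezo1 covered -4.23 to -1.70 in SCN9A_2544 and -5.18 to -3.03 in PBS libraries, its top value again in SCN9A_2544 replicate 3.

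When the edgeR fit included the pan-neuronal mean of each library, the estimates for the neuronal members became narrower and 0 of 5 passed an adjusted p of 0.05, against 0.00659% of all tested genes (1 gene, Scn9a, lower, adjusted p = 0.0466). Asic1 had a log2 fold change of -0.087 (SE 0.095, 95% interval -0.29 to 0.12, adjusted p = 0.755). Piezo2 had 0.098 (SE 0.11, interval -0.15 to 0.35, adjusted p = 0.772) and Asic3 had 0.067 (SE 0.11, interval -0.16 to 0.30, adjusted p = 0.838). Asic2 had -0.048 (SE 0.15, interval -0.37 to 0.27, adjusted p = 0.924). Piezo1 kept its estimate of 0.43 (SE 0.22, interval -0.044 to 0.90, adjusted p = 0.549). None of the 5 had an unadjusted p under 0.05 in this fit, against 9.57% of all tested genes. For Asic1, Piezo2 and Asic3 the standard error fell to 0.095, 0.11 and 0.11, against 0.28, 0.30 and 0.34 without the covariate. With 5 libraries a group, changes inside these intervals could not be told from none.

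**Figure D3:**
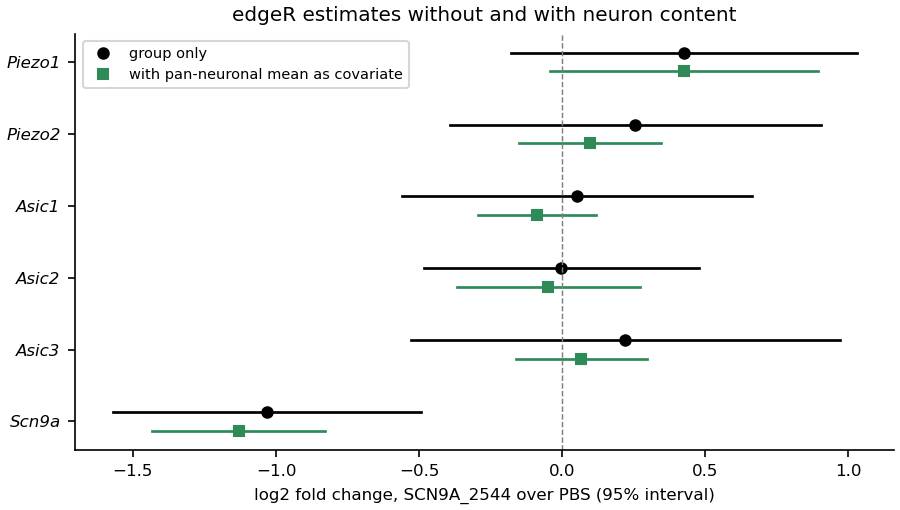
edgeR log2 fold changes of SCN9A_2544 over PBS (x axis) with 95% intervals for the 5 channel genes and Scn9a (rows), from the fit with group only (black circles) and with the pan-neuronal mean as covariate (green squares). All intervals of the 5 channel genes include 0 in both fits, while both intervals of Scn9a lie below it.

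The same pattern appears in the relation to the pan-neuronal mean over the 10 libraries, one of 50 relations computed (5 genes with 10 marker lists). The pan-neuronal mean had its widest gap, 0.46, between 8.08 and 8.55 log2 CPM, with 3 libraries below it, so each r is given again without the 2 libraries farthest from the median, SCN9A_2544 replicate 3 and PBS replicate 3. Asic1 ranked the libraries exactly as the pan-neuronal mean did, with Spearman rho = 1 (permutation p = 1e-05, adjusted p = 0.00025) and Pearson r = 0.97 (permutation p = 1e-05, adjusted p = 0.00025), where 1e-05 is the smallest that 1e+05 permutations give, and r = 0.92 without the 2 libraries. For Asic3, r was 0.97 (permutation p = 8e-05, adjusted p = 0.001) and rho 0.92 (permutation p = 0.00053, adjusted p = 0.0085), and r was 0.94 without the 2 libraries. For Piezo2, r was 0.95 (permutation p = 0.00015, adjusted p = 0.00133) and rho 0.84 (permutation p = 0.00395, adjusted p = 0.0198), and r was 0.83 without them. For Asic2, r was 0.79 (permutation p = 0.00694, adjusted p = 0.0217) and rho 0.88 (permutation p = 0.00188, adjusted p = 0.0134), and r was 0.80 without them. For Piezo1, r was -0.51 (permutation p = 0.157, adjusted p = 0.261) and rho -0.28 (permutation p = 0.426, adjusted p = 0.546), and r was -0.33 without them. The fitted slopes, in log2 units of the gene per log2 unit of the pan-neuronal mean, were 1.18 for Asic3, 0.98 for Piezo2, 0.93 for Asic1, 0.52 for Asic2 and -0.50 for Piezo1. These slopes are descriptions, and the genes and markers share the library and its scaling. Many tested genes outside the pan-neuronal list were also related to that mean. Of these 15167 genes, 0.804% had a higher r than Asic3, 1.21% than Asic1 and 2.63% than Piezo2. A higher r than that of Asic2 was found in 15.9%, and a higher r than that of Piezo1 in 70.2%.

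Within the 7 libraries above that gap, a split made after the values were seen, the relation to the pan-neuronal mean held for Asic1, with r = 0.90 and rho = 1 (exact permutation p = 0.000397 for each, adjusted p = 0.00198 over the 5 genes). It also held for Asic2, with r = 0.89 (exact permutation p = 0.00873, adjusted p = 0.0218) and rho = 0.89 (exact permutation p = 0.0123, adjusted p = 0.0307). Asic3 had r = 0.83 (exact permutation p = 0.0333, adjusted p = 0.0556) and rho = 0.75 (exact permutation p = 0.0663, adjusted p = 0.11), and Piezo2 had r = 0.65 (exact permutation p = 0.133, adjusted p = 0.166) and rho = 0.54 (exact permutation p = 0.236, adjusted p = 0.295), so neither passed. For Piezo2 and Asic3 the pooled relation was thus not shown to hold without the 3 libraries of low neuronal markers. Piezo1 had r = -0.21 (exact permutation p = 0.876, adjusted p = 0.876).

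Schwann cell and myelin markers, from the glia that ensheathe axons, ran the other way in the same libraries. The 3 libraries lowest in neuronal markers had the 3 highest Schwann means, at 10.12 log2 CPM in SCN9A_2544 replicate 3, 9.98 in PBS replicate 3 and 9.84 in PBS replicate 5, and the other 7 lay between 7.57 and 9.31. Of the 50 relations, that of Asic3 to the Schwann mean had r = -0.93 (permutation p = 0.00016, adjusted p = 0.00133) and rho = -0.88 (permutation p = 0.00165, adjusted p = 0.0134). Asic1 had r = -0.85 (permutation p = 0.00073, adjusted p = 0.00365) and rho = -0.90 (permutation p = 0.00077, adjusted p = 0.0085). Piezo2 had r = -0.82 (permutation p = 0.00339, adjusted p = 0.0141) and rho = -0.72 (permutation p = 0.0237, adjusted p = 0.0658), and Asic2 had r = -0.76 (permutation p = 0.0157, adjusted p = 0.0436) and rho = -0.77 (permutation p = 0.0126, adjusted p = 0.0419). Without SCN9A_2544 replicate 3 and PBS replicate 3, r was -0.88 for Asic3, -0.76 for Asic1, -0.63 for Piezo2 and -0.66 for Asic2. PBS replicate 5 stayed in for these values, and the relations were not computed within the other 7 libraries alone. Neuronal and Schwann markers thus ran in opposite directions over these libraries, and the part of each in the members' values was not tested.

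**Figure D4:**
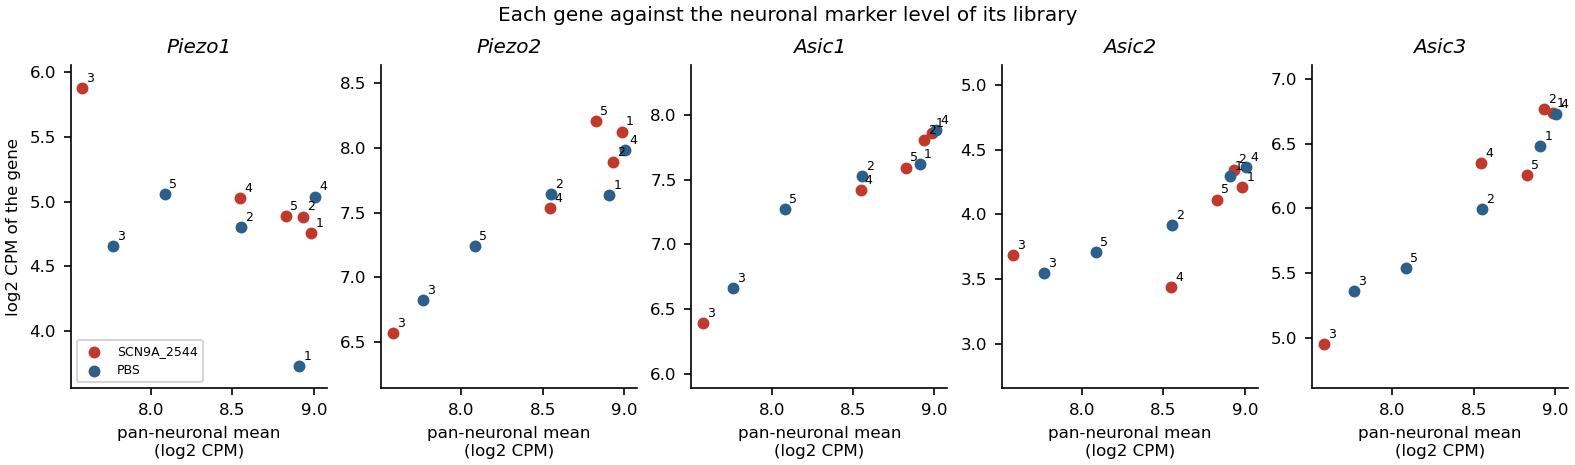
log2 CPM of each gene (y axes, all of equal length) against the mean log2 CPM of 19 pan-neuronal markers (x axes) in the 10 libraries, SCN9A_2544 in red and PBS in blue, numbered by replicate. Asic1, Asic3 and Piezo2 rise along a narrow band in which the groups intermix, SCN9A_2544 replicate 4 lies below the band for Asic2, and Piezo1 shows no such band.

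The type of sensory neuron was looked at in the same way. With the 15 tested markers of mechanoreceptors and proprioceptors, r was 0.93 for Asic1 (permutation p = 1e-05, rho = 0.99, permutation p = 1e-05), 0.96 for Asic3 (permutation p = 4e-05, rho = 0.90, permutation p = 0.00085) and 0.89 for Piezo2 (permutation p = 0.00061, rho = 0.83, permutation p = 0.00487). Adjusted over the 50 relations these p-values for r were 0.00025, 0.000667 and 0.00339, and those for rho 0.00025, 0.0085 and 0.0221, and without the 2 farthest libraries r was 0.96, 0.93 and 0.82. With the 12 nociceptor markers, r was 0.90 for Asic1 (permutation p = 0.00089, rho = 0.85, permutation p = 0.00299), 0.93 for Asic3 (permutation p = 0.00046, rho = 0.75, permutation p = 0.017) and 0.90 for Piezo2 (permutation p = 0.0006, rho = 0.82, permutation p = 0.00636). Adjusted over the 50 relations these were 0.00405, 0.00329 and 0.00339 for r and 0.0172, 0.0531 and 0.0245 for rho, and without the 2 farthest libraries r was 0.68, 0.83 and 0.72. For Asic2, r was 0.80 with the mechanoreceptor list and 0.72 with the nociceptor list (permutation tests, adjusted p = 0.0217 and 0.0624). Its rho was 0.85 and 0.79 (permutation tests, adjusted p = 0.0172 and 0.032). For Piezo1, r was -0.44 and -0.46 (permutation tests, adjusted p = 0.292 for each). Without the 2 farthest libraries, r was 0.83 and 0.60 for Asic2 and 0.097 and -0.34 for Piezo1. Both lists were low in the libraries with low pan-neuronal means, and these pooled relations were not computed within the 7 libraries above the gap. The part of each neuron type in the members' values was not tested. The mechanoreceptor mean was 5.06 ± 0.32 log2 CPM in SCN9A_2544 and 5.03 ± 0.35 in PBS ganglia (SD, n = 5 each, exact permutation p = 0.921, adjusted p = 0.976), and 0 of its 15 tested genes passed by edgeR, over all genes. Its smallest p belonged to Etv1, a transcription factor of proprioceptors, at 134 ± 31.8 CPM in SCN9A_2544 and 172 ± 25.3 CPM in PBS (log2 fold change -0.36, SE 0.18, edgeR adjusted p = 0.963).

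Relations to markers of cells other than neurons were computed for all 5 genes and are given here mainly for Piezo1. Its r with the mean of 11 endothelial markers was 0.88 (permutation p = 0.00617, adjusted p = 0.0217) and rho 0.62 (permutation p = 0.0601, adjusted p = 0.131). Without SCN9A_2544 replicate 3 and PBS replicate 1, r was 0.26, so the relation rests on those 2 libraries, which hold the highest and the lowest values of both measures. The endothelial mean was 4.25 ± 0.19 log2 CPM in SCN9A_2544 and 4.22 ± 0.21 in PBS ganglia (SD, n = 5 each, exact permutation p = 0.873, adjusted p = 0.976), and SCN9A_2544 replicate 3 stood at 4.58 while the other treated libraries lay between 4.15 and 4.19. The summed endothelial level ran from 214 to 304 CPM in SCN9A_2544 and from 172 to 265 CPM in PBS libraries. Eng, the endothelial co-receptor endoglin, had the smallest p of the list, with 25.7 ± 2.08 CPM in SCN9A_2544 and 18.4 ± 3.50 CPM in PBS ganglia (log2 fold change 0.49, SE 0.15, edgeR adjusted p = 0.963). Of the 11 markers 6 lay above 0, against 53.4% of all tested genes. A relation to the endothelial mean was not particular to Piezo1. Asic3 had r = -0.77 (permutation p = 0.0066, adjusted p = 0.0217) and rho = -0.82 (permutation p = 0.00602, adjusted p = 0.0245). Without SCN9A_2544 replicate 3 and PBS replicate 1, r for Asic3 was -0.76. For Asic1, Piezo2 and Asic2, r was -0.67, -0.64 and -0.57 (permutation tests, adjusted p = 0.0816, 0.097 and 0.156). The part of endothelial content in the Piezo1 and Asic3 values was not tested.

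Macrophages, which in mice carry Piezo1, and satellite glia, the cells that wrap neuronal cell bodies, had marker means that stood higher in treated ganglia without passing over the 10 lists. The mean of 11 macrophage markers was 4.08 ± 0.38 log2 CPM in SCN9A_2544 and 3.52 ± 0.26 in PBS ganglia (SD, n = 5 each, exact permutation p = 0.0159, adjusted p = 0.0794 over 10 lists). The summed macrophage level ran from 193 to 360 CPM in SCN9A_2544 and from 110 to 180 CPM in PBS libraries. Of the 11 markers, 10 lay above 0, against 53.4% of all tested genes. By edgeR 0 passed over all genes, and 6 had an unadjusted p under 0.05, against 4.23% of all tested genes. The mean of 11 satellite glia markers was 6.86 ± 0.14 log2 CPM in SCN9A_2544 and 6.56 ± 0.12 in PBS ganglia, with no overlap (SD, n = 5 each, adjusted p = 0.0794, exact permutation p = 0.00794, the smallest possible for 5 against 5). For the macrophage mean, r with Piezo1 was 0.69 (permutation p = 0.0332, adjusted p = 0.0816) and rho 0.33 (permutation p = 0.352, adjusted p = 0.489), and r was 0.69 without the 2 farthest libraries, PBS replicate 1 and SCN9A_2544 replicate 4. None of the remaining lists of cells other than neurons passed with Piezo1 over the 50 relations. For mural cells r was 0.68 (permutation p = 0.0384, adjusted p = 0.0834) and rho 0.35 (permutation p = 0.327, adjusted p = 0.475), with r = 0.32 without PBS replicates 1 and 5. For Schwann cells r was 0.60 (permutation p = 0.0547, adjusted p = 0.109) and rho 0.47 (permutation p = 0.179, adjusted p = 0.298), with r = 0.57 without SCN9A_2544 replicate 3 and PBS replicate 3. For satellite glia r was 0.57 (permutation p = 0.0784, adjusted p = 0.145) and rho 0.16 (permutation p = 0.657, adjusted p = 0.782), with r = 0.48 without SCN9A_2544 replicate 3 and PBS replicate 5. For fibroblasts r was 0.43 (permutation p = 0.199, adjusted p = 0.292) and rho 0.30 (permutation p = 0.407, adjusted p = 0.535), and for red blood cell genes r was -0.35 (permutation p = 0.307, adjusted p = 0.394) and rho -0.53 (permutation p = 0.123, adjusted p = 0.219). Without the 2 farthest libraries these 2 values of r were -0.18 and -0.53. The part of these cells in the Piezo1 values was not tested.

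The balance of the 2 Piezo genes differed widely between ganglia of the same label. The Piezo2 to Piezo1 ratio of CPM was 10.4, 8.08, 1.61, 5.70 and 10.1 in SCN9A_2544 replicates 1 to 5 and 15.2, 7.19, 4.51, 7.73 and 4.55 in PBS replicates 1 to 5. Its low and high ends thus fell in libraries of different groups, SCN9A_2544 replicate 3 and PBS replicate 1. The ratio is not scaled to length, so it is read between libraries and not as a ratio of molecules. The ratio of Asic1 to Asic3 was steadier, from 2.06 to 2.73 in SCN9A_2544 and from 2.20 to 3.34 in PBS libraries.

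Genes whose log2 CPM followed each member most closely over the 10 libraries were looked up among 13599 tested genes with a symbol, as descriptions of likeness. Nearest to Asic1 were Flt3, a receptor tyrosine kinase, Extl2 and Snap25, each with Pearson r = 0.99, Snap25 being a presynaptic SNARE protein and 1 of the pan-neuronal markers. Nearest to Asic3 were Lrfn2, a synaptic adhesion protein, and Sptssb, a subunit of serine palmitoyltransferase, with r = 0.99, and Prepl, with r = 0.98. Nearest to Piezo2 were Mapk10, the neuronal JNK3 kinase, and Usp8, a deubiquitinase, with r = 0.99, and Gcnt4 with r = 0.98. Nearest to Asic2 were Pim3, Alpg and Fxyd7, with r = 0.96, 0.95 and 0.95. Nearest to Piezo1 were Nxn, Trim47 and Ephb4, the last a receptor of venous endothelium, with r of 0.95 for each, but rho of 0.90, 0.59 and 0.61, and the ends of the Piezo1 range are SCN9A_2544 replicate 3 and PBS replicate 1. Among the members, the pairs Asic1 and Asic3 (r = 0.95), Piezo2 and Asic1 (r = 0.94) and Piezo2 and Asic3 (r = 0.90) were closest, and Piezo1 had r between -0.48 and -0.38 with the other 4.

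Other genes of the same pathways were taken from lists. Of 13 partners and regulators of Piezo and ASIC channels, 11 were tested and 0 passed by edgeR in either direction, with 8 above and 3 below 0. Their median log2 fold change was 0.037, against 0.021 over all tested genes, and 0 had an unadjusted p under 0.05. Over all tested genes 53.4% were above 0 and 4.23% had an unadjusted p under 0.05. The 4 with the smallest p were Stoml3, a stomatin-like protein that sensitises Piezo channels, at 0.36 (SE 0.29), Mdfi, a relative of the Piezo-binding protein MDFIC, at 0.58 (SE 0.57), Atp2a2, the calcium pump SERCA2, at 0.17 (SE 0.17), and Mtmr2, a lipid phosphatase that dampens Piezo2 currents, at -0.10 (SE 0.16). Stoml3 was barely detected, with 0.844 ± 0.20 CPM in SCN9A_2544 and 0.658 ± 0.11 CPM in PBS ganglia (SD, n = 5 each).

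Of 12 other mechanically gated or stretch-sensitive channels, 11 were tested, 0 passed by edgeR and 0 had an unadjusted p under 0.05, with 8 above and 3 below 0 and a median log2 fold change of 0.20. Over all tested genes 53.4% were above 0, 4.23% had an unadjusted p under 0.05 and the median was 0.021. Tmem63b and Tmem63c, osmotically and mechanically gated channels, stood at 194 ± 23.0 and 97.1 ± 29.8 CPM in SCN9A_2544 ganglia and at 169 ± 41.5 and 76.7 ± 26.7 CPM in PBS ganglia (SD, n = 5 each). Their log2 fold changes were 0.20 (SE 0.17) and 0.34 (SE 0.29). Trpv4, an osmosensitive cation channel, had 0.46 (SE 0.40), and Tmc2, of the family of hair cell transduction channels, had 0.65 (SE 0.51). Trpv4 and Tmc2 were at 1.76 and 1.08 CPM on average in SCN9A_2544 and at 1.28 and 0.684 CPM in PBS ganglia.

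Of 9 other acid-sensing receptors and channels, 8 were tested, 0 passed by edgeR and 1 had an unadjusted p under 0.05, with 6 above and 2 below 0. Their median log2 fold change was 0.36, against 0.021 over all tested genes. Over all tested genes 53.4% were above 0 and 4.23% had an unadjusted p under 0.05. Pacc1, the proton-activated chloride channel, had 15.6 ± 3.08 CPM in SCN9A_2544 and 11.8 ± 1.35 CPM in PBS ganglia (SD, n = 5 each). Its log2 fold change was 0.41 (SE 0.16), with an edgeR p of 0.0284 and an adjusted p of 0.963. The proton-sensing receptor gene Gpr4 had 0.90 (SE 0.49), and the two-pore potassium channel genes Kcnk3 and Kcnk1 had 0.58 (SE 0.34) and -0.34 (SE 0.16). Gpr4 averaged 4.83 ± 1.99 CPM in SCN9A_2544 and 2.61 ± 2.20 CPM in PBS ganglia (SD, n = 5 each). Some receptors of this list are known from vessels and immune cells, and the macrophage level given for Piezo1 was higher in the same treated libraries. Its part in these values was not tested.

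**Figure D5:**
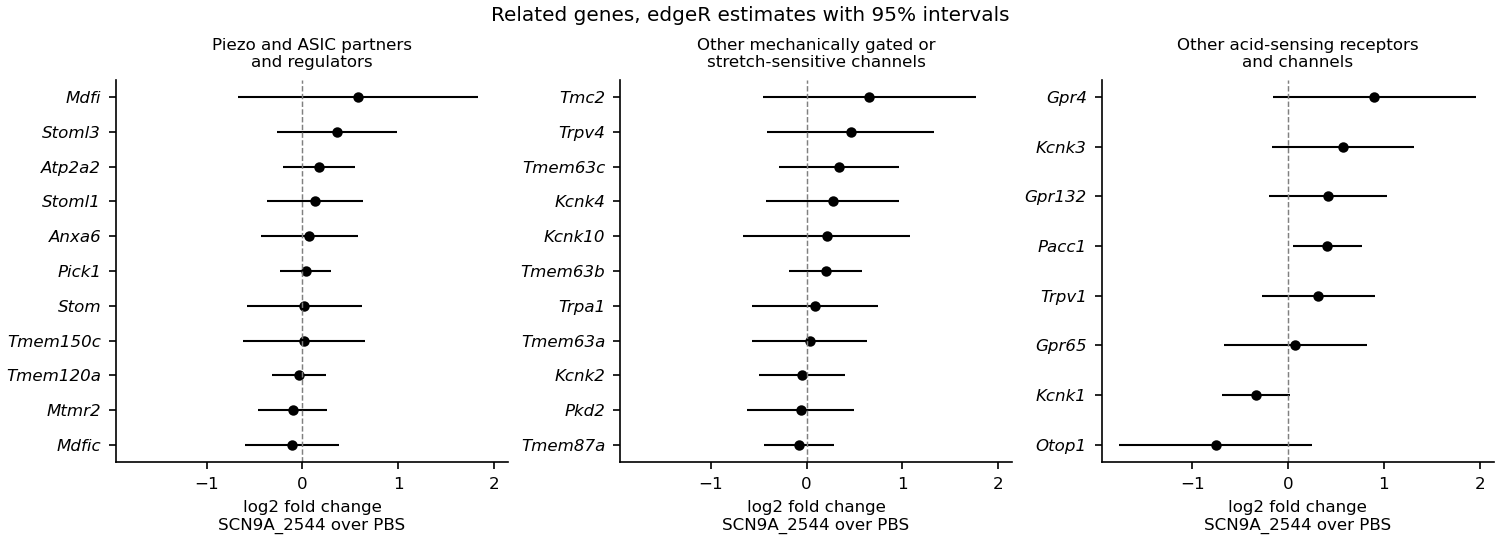
edgeR log2 fold changes of SCN9A_2544 over PBS (x axes) with 95% intervals for the tested genes of 3 lists (rows, ordered by value). Of these 30 genes, all but Pacc1 have an interval that includes 0, and 0 passed an adjusted p of 0.05.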

How the data were processed

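RNA was extracted from 10 samples of L6 dorsal root ganglia (5 SCN9A_2544, 5 PBS), and poly(A) libraries were sequenced as paired reads of 150 bases, per the labels' protocols. The authors deposited estimated counts per gene, not normalized; 11.6% to 12.4% of values in a library were not whole, and among the members only Piezo2 held such values. Per the submitters' processing notes, STAR 2.7.10a, DESeq2 1.44.0 and the build mRatBN7.2 were used, with no role named; the counting program, annotation and strand setting are not stated in the labels or notes. Without a stated strand setting, reads of antisense or overlapping genes may be included, and ASIC paralogs may share reads.

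Counts were rounded. Genes were filtered with filterByExpr (minimum count 10, minimum total 15), scaled by TMM and tested with edgeR 4.0.16 in R 4.3.3 (quasi-likelihood F-test, Benjamini-Hochberg over 15186 genes, threshold 0.05). A standard error is the log2 fold change divided by the square root of F. log2 CPM uses a prior count of 2. Marker means were compared by exact permutation tests and correlations by permutation, all two-sided. The design assumed raw counts, and the test was kept. DESeq2 1.42.0 and limma 3.58.1 were alternatives. On simulated data for this comparison (15186 genes, 50 changed per fold size) edgeR recovered 2% of genes changed 1.5-fold, 36% of 2-fold, 76% of 3-fold and 78% of 4-fold, with 4 false calls. Each simulated gene varied independently, while in the real libraries many genes varied with the pan-neuronal mean. The shares recovered may therefore not hold for the real libraries. No pair of the 45 library pairs agreed within sampling noise (chi-square per gene 7.70 to 218).

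The members and lists were chosen with earlier results of these data known. The genes named are the 5 members, Scn9a, the 3 most like genes of each member, and up to 4 genes of smallest p per list described; Asic4 and Asic5 were added after their counts were seen. Lists are of channel partners, mechanical and acid sensors, shear-responsive genes, and markers of neurons, glia, vessels, fibroblasts, macrophages and blood. One item of a list is not reported here, and the list's counts leave it out. Depth limits the precision of low genes, and floors cover counting error only.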

Additional observations from a re-analysis of the deposited data

Results flagged for a closer look

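Of 40 groups of 5 libraries checked for a value far from the other 4, 5 gave one, where chance flags about 1 in 20. The groups share libraries, and most flags fell in SCN9A_2544 replicate 3. The count is therefore not a test against chance. Piezo1 in SCN9A_2544 replicate 3, at 58.8 CPM, stood apart from the other treated libraries, at 26.8 to 32.5 CPM. Relative to the pan-neuronal mean it stood at -1.70 on the log2 scale in that library, against -4.23 to -3.52 in the other 4. The same library had the lowest nociceptor marker mean of its group, 5.53 log2 CPM against 6.40 to 6.63, and the highest endothelial marker mean, 4.58 log2 CPM against 4.15 to 4.19. The fibroblast marker mean was 8.07 log2 CPM in SCN9A_2544 replicate 4, against 7.19 to 7.40 in the other treated libraries, and that library also had the lowest Asic2 value, 10.7 CPM. Over the 10 libraries Asic2 and the fibroblast mean had r = -0.78 (permutation p = 0.00794, adjusted p = 0.023 over the 50 relations). Their rho was -0.73 (permutation p = 0.021, adjusted p = 0.0604), so it did not pass. Without PBS replicates 1 and 5, r was -0.82. The part of fibroblasts in the Asic2 values was not tested.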

How the results depend on the processing

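None of the 5 members passed an adjusted p of 0.05 in any of 19 alternatives, and their smallest adjusted p was 0.196, for Asic3 under limma voom with sample weights (log2 fold change 0.56, unadjusted p = 0.0245). Piezo1 had an unadjusted p of 0.0212 with the Schwann cell covariate (0.51). Piezo1 and Piezo2 stayed above 0 in all 19, at 0.13 to 0.51 and 0.048 to 0.42. Relative to the pan-neuronal mean, however, the Piezo1 difference between the groups turned sign. It was 0.32 with all libraries, -0.13 without SCN9A_2544 replicate 3 and -0.024 without PBS replicate 1. Values near 0 turned sign. Asic1 was -0.087 with the pan-neuronal covariate, -0.15 with the Schwann cell covariate and -0.026 when the 3 libraries with the lowest neuronal means were dropped, Asic3 was -0.014 with the Schwann cell covariate, and Asic2 was 0.20 under limma voom. With each library left out in turn, Asic1 ran from -0.093 to 0.20, Asic2 from -0.11 to 0.11 and Asic3 from 0.080 to 0.43. The cause was not tested. The count of all genes called was 0 by edgeR, 17 by DESeq2, 1 by limma voom, 1 with either covariate, 1 without the 3 libraries and 0 to 1 with a library left out. Without adjustment, p fell under 0.05 for 642 genes by edgeR, 967 by DESeq2, 3175 by limma voom, 985 with no low-count filter, 1454 with the pan-neuronal and 1259 with the Schwann cell covariate, and for 385 to 1642 with a library left out. Marker mean differences near 0 turned sign with a library left out: mechanoreceptors -0.062 to 0.16, pan-neuronal genes -0.065 to 0.36, endothelium -0.054 to 0.089, mural cells -0.23 to 0.19 (-0.012 with RLE size factors), fibroblasts -0.23 to 0.16 and red blood cells -0.54 to 0.24. Of the lists that kept their sign, the Schwann difference of -0.32 ran from -0.69 (without SCN9A_2544 replicate 3) to -0.072 (without PBS replicate 3), and the nociceptor difference of 0.16 from 0.0036 (without PBS replicate 3) to 0.35 (without SCN9A_2544 replicate 3). The labels do not say whether shared replicate numbers pair the samples. Deviations of same-numbered libraries correlated at -0.0063 to 0.57, over 0.1 in 2 of 5. So few values cannot settle whether samples were paired. With the replicate block the log2 fold changes were 0.43 (SE 0.22) for Piezo1, 0.20 (SE 0.21) for Piezo2 and 0.022 (SE 0.16) for Asic1. They were -0.0024 (SE 0.21) for Asic2 and 0.19 (SE 0.20) for Asic3. Without the block these SEs were 0.28, 0.30, 0.28, 0.22 and 0.34, in the same order. With it 0 genes were called, and 2 of 5 treated libraries correlated best with the PBS library of their own number.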

Other observations

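Shear-responsive endothelial genes, a list that includes transcription factors known to respond to flow, had 4 of 5 tested members above 0 and 0 past an adjusted p of 0.05 by edgeR. Over all tested genes 53.4% were above 0 and 0% passed. Klf2, the best known of them, stood at 21.3 ± 8.37 CPM in SCN9A_2544 and 12.8 ± 2.80 CPM in PBS ganglia (SD, n = 5 each). Its log2 fold change was 0.73 (SE 0.27, edgeR adjusted p = 0.963), and Klf4, Thbd and Nos3 had 0.34, 0.22 and 0.16. Schwann cell and myelin markers averaged 8.66 ± 0.90 log2 CPM in SCN9A_2544 and 8.98 ± 1.05 in PBS ganglia (exact permutation p = 0.603), the nociceptor mean 6.29 ± 0.44 in SCN9A_2544 and 6.13 ± 0.50 in PBS (p = 0.587, exact), and the pan-neuronal mean 8.57 ± 0.58 in SCN9A_2544 and 8.46 ± 0.53 in PBS (p = 0.81, exact). Mural cells had 4.39 ± 0.27 in SCN9A_2544 and 4.38 ± 0.63 in PBS (p = 0.976, exact), fibroblasts 7.47 ± 0.34 in SCN9A_2544 and 7.49 ± 0.62 in PBS (p = 0.968, exact), and red blood cell genes 4.51 ± 0.37 in SCN9A_2544 and 4.61 ± 1.22 in PBS (p = 0.905, exact), all SD with n = 5 each. Adjusted over the 10 lists these p-values were all 0.976. For mural cells the median log2 fold change over 8 genes was -0.12, of the opposite sign to the difference of means. For fibroblasts the median was -0.41, with 6 of 8 genes below 0, beside a difference of means of -0.015, and for red blood cell genes it was -0.38, with 5 of 5 below 0, beside -0.094. None of these genes passed by edgeR over all tested genes, of which 0% passed and 53.4% lay above 0.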
